A study of Homo sapiens with 6 samples.

Results

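ASCL2 and 9 other genes of intestinal stem cell and intestinal identity were followed by RNA sequencing in SW480, an established human cell line of colorectal adenocarcinoma. The 10 genes were chosen by name from a table of 60664 genes, with earlier results of the same comparison known, so the differences between treatments given for them are descriptions and not independent evidence. Of the 10, 7 passed the filter on low values and were tested with 14421 genes in all: ASCL2, CDX2, SOX9, SOX4, EPHB2, EPHB3 and CD44. LGR5, PROM1 and CDX1 did not pass it.

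The study compared 3 libraries of SW480 cells given Amuc_0904 with 3 libraries of SW480 cells given buffer, and both groups had the genotype labelled WT. The agent's name is written like a gene identifier of Akkermansia muciniphila, a bacterium of the gut, and the labels give neither a dose, an exposure time nor a description of the preparation. All libraries came from 1 cell line, and nothing in the labels says whether replicates were separate cultures, so p-values measure the spread between these libraries, which may be technical. Levels are in TPM, which divides by transcript length within each library, so levels of different genes can be compared, but the read depth behind them is unknown.

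In the intestinal crypt, stem cells at the base are kept by Wnt signalling, in which beta-catenin joins TCF factors on DNA and switches on genes such as LGR5, ASCL2, EPHB2 and EPHB3. ASCL2 is a basic helix-loop-helix transcription factor that controls the stem cell state in this epithelium, and CDX1 and CDX2 are homeobox factors that give the epithelium its intestinal character. SW480 cells carry a truncated APC, so the beta-catenin branch of the pathway is active without a ligand. In a lysate of many cells, fewer cells of a type and less RNA per cell cannot be told apart.

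The libraries held some colorectal epithelium markers at high levels and others near 0. Of 11 colorectal epithelium markers, 6 passed the filter, among them EPCAM, an epithelial adhesion molecule, at a mean of 193 TPM in Amuc_0904 and 221 TPM in buffer libraries, and the epithelial keratin KRT8 at 3040 TPM in Amuc_0904 and 3484 TPM in buffer libraries. KRT20, VIL1, CDH17, LGALS4 and CDX1 did not pass. Of 22 markers of fibroblasts, immune cells and endothelium, 3 passed (COL1A1, CD68 and CD14), and the leukocyte antigen gene PTPRC was listed at 0 in all 6 libraries. The immune markers summed to between 4.88 and 5.55 TPM in Amuc_0904 libraries and between 3.66 and 4.44 TPM in buffer libraries. The fibroblast markers summed to between 1.71 and 2.27 TPM in Amuc_0904 libraries and between 2.32 and 3.77 TPM in buffer libraries, and the endothelial markers to at most 0.610 TPM in Amuc_0904 and 0.880 TPM in buffer libraries.

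ASCL2 was at 19.7, 19.39 and 14.98 TPM in Amuc_0904 libraries, against 39.01, 41.02 and 34.45 TPM in buffer libraries. The groups did not overlap, and the highest treated library lay far below the lowest buffer library. The means were 18.02 ± 2.64 TPM in Amuc_0904 libraries and 38.2 ± 3.37 TPM in buffer libraries (SD, n = 3 each), a ratio of 0.472. On the log2(TPM + 1) scale the fold change was -1.05 (SE 0.117, 95% interval -1.32 to -0.78). ASCL2 (ENSG00000183734) lies on the minus strand of chromosome 11 from 2268495 to 2270952 in GENCODE 29 on GRCh38 and overlaps no other annotated gene there.

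ASCL2 was the 1 of the 7 tested members past an adjusted p of 0.05 in limma, a linear model fitted across all tested genes, and it fell. Over all genes tested, 1.37% passed in either direction, 0.999% fell and 0.368% rose. Since the same contrast led to the choice of the members, nothing is read from this count. No member rose in limma at the adjusted threshold, and at an unadjusted p under 0.05, 3 members were lower and 0 were higher. Over all genes tested, 16.3% were lower and 4.49% were higher at that unadjusted threshold. The log2 fold change was negative for 6 of the 7 members and for 62.5% of all genes tested. The call of ASCL2 was lost without buffer replicate 2, where the log2 fold change was -0.995 (limma adjusted p = 0.05001), and when no filter on low values was used (limma adjusted p = 0.0912).

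**Figure D1:**
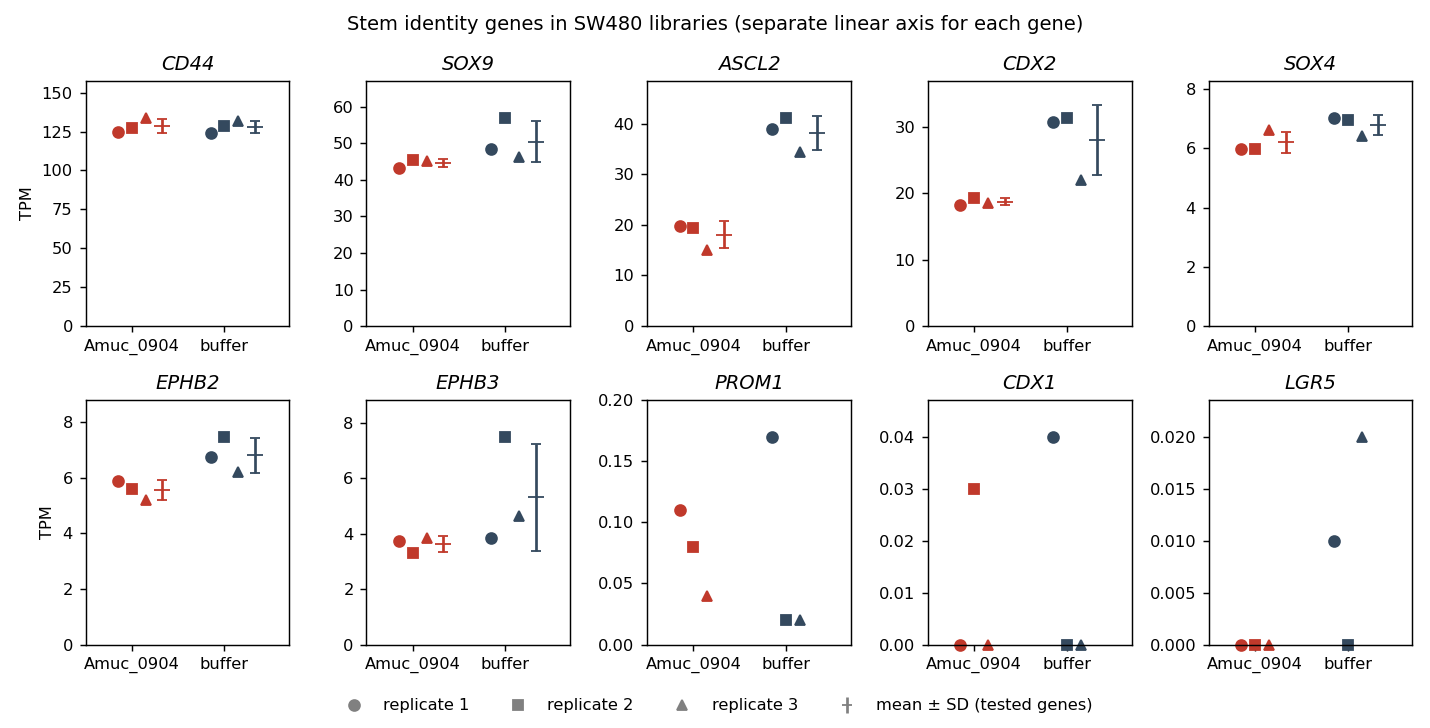
TPM of the 10 genes in each library, with a separate linear axis from 0 for each gene, Amuc_0904 on the left of each panel and buffer on the right. Marker shapes give the replicate number, which names a library and does not pair them, and bars give the mean ± SD of the 7 tested genes; ASCL2 lies between 14.98 and 19.7 TPM in treated libraries and between 34.45 and 41.02 TPM in buffer libraries.

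CDX2, the homeobox factor that specifies intestinal epithelium, was at 18.24, 19.26 and 18.51 TPM in Amuc_0904 libraries, against 30.71, 31.24 and 21.95 TPM in buffer libraries. The treated libraries lay close together and below all buffer libraries, while buffer replicate 3 stood much nearer to the treated libraries than the other buffer libraries did. The means were 18.7 ± 0.528 TPM in Amuc_0904 and 28.0 ± 5.22 TPM in buffer libraries (SD, n = 3 each), with a log2 fold change of -0.54 (95% interval -0.84 to -0.24). CDX2 did not pass limma's adjusted threshold over all libraries, and without buffer replicate 3 its log2 fold change was -0.70 and it passed (limma adjusted p = 0.0268). Its paralogue CDX1 was listed at 0 in 2 treated and 2 buffer libraries, at 0.03 TPM in Amuc_0904 replicate 2 and at 0.04 TPM in buffer replicate 1.

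EPHB2 and EPHB3 encode receptor tyrosine kinases for ephrin-B ligands that position cells along the crypt. EPHB2 was at 5.89, 5.61 and 5.2 TPM in Amuc_0904 libraries and at 6.74, 7.48 and 6.23 TPM in buffer libraries. The EPHB2 groups did not overlap but lay close to each other, with a log2 fold change of -0.25 (95% interval -0.50 to -0.00035). EPHB3 was at 3.73, 3.3 and 3.84 TPM in Amuc_0904 libraries and at 3.83, 7.5 and 4.63 TPM in buffer libraries. Its groups overlapped, since Amuc_0904 replicate 3 exceeded buffer replicate 1, and the high value of buffer replicate 2 made the buffer spread wide. The coefficient of variation of EPHB3 was 7.88% in Amuc_0904 and 36.3% in buffer libraries. The log2 fold change of EPHB3 was -0.41 (95% interval -0.87 to 0.05), and without buffer replicate 2 it was -0.18.

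SOX9 and SOX4 are HMG-box transcription factors, SOX9 being a factor of crypt base cells that is controlled by Wnt signalling. SOX9 was at 43.37, 45.46 and 45.14 TPM in Amuc_0904 libraries, against 48.5, 56.87 and 46.21 TPM in buffer libraries. The SOX9 groups did not overlap, but the lowest buffer library lay less than 1 TPM above the highest treated library. The log2 fold change was -0.17 (95% interval -0.36 to 0.03), and without buffer replicate 2 it was -0.08. SOX4 was at 5.99, 5.98 and 6.62 TPM in Amuc_0904 libraries and at 7.01, 6.94 and 6.4 TPM in buffer libraries. Its groups overlapped, and the log2 fold change was -0.11 (95% interval -0.34 to 0.12). SOX9 overlaps the gene SOX9-AS1 on the other strand, at a mean of 0.95 TPM in Amuc_0904 and 0.303 TPM in buffer libraries, and the strand setting of the libraries is not given in the sources used here.

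CD44, a hyaluronan receptor used as a marker of colorectal cancer stem cells, had the highest level of the 10 genes. It was at 124.96, 127.14 and 133.48 TPM in Amuc_0904 libraries and at 124.3, 128.3 and 131.88 TPM in buffer libraries. The groups covered nearly the same range, with means of 129 ± 4.43 TPM in Amuc_0904 and 128 ± 3.79 TPM in buffer libraries (SD, n = 3 each). The log2 fold change was 0.004 with a 95% interval from -0.13 to 0.13, so differences within that interval remain possible. With each library centred on its median it was 0.08, and after removal of the trend with transcript GC content it was -0.05. The table gives 1 value for the gene, so CD44 splice forms were not measured.

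LGR5 encodes the R-spondin receptor by which crypt stem cells are usually recognised, and PROM1 encodes the pentaspan membrane protein CD133. LGR5 was listed at 0 in all 3 Amuc_0904 libraries and in buffer replicate 2, at 0.01 TPM in buffer replicate 1 and at 0.02 TPM in buffer replicate 3. PROM1 was at 0.11, 0.08 and 0.04 TPM in Amuc_0904 libraries and at 0.17, 0.02 and 0.02 TPM in buffer libraries. Both genes, like CDX1, were thus near or at 0 in both groups, and no fold is given for them. A value listed at 0 can be a failed estimate, so absence of the transcripts is not shown.

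By mean level over the 6 libraries of both groups, the 10 genes ran in the order CD44, SOX9, ASCL2, CDX2, SOX4, EPHB2, EPHB3, PROM1, CDX1 and LGR5. In the Amuc_0904 libraries the ranges of ASCL2 and CDX2 overlapped and CDX2 had the higher mean, whereas in the buffer libraries ASCL2 lay above CDX2 without overlap. Neither SOX4 and EPHB2 nor EPHB2 and EPHB3 overlapped in the Amuc_0904 libraries. Both pairs did in the buffer libraries, where EPHB2 had a slightly higher mean than SOX4. PROM1 and CDX1 overlapped in the buffer libraries, and CDX1 and LGR5 in both groups. The highest of the 6 values fell in buffer replicate 2 for 5 of the 7 tested members, in buffer replicate 1 for 1 and in Amuc_0904 replicate 3 for 1. The lowest value fell in a treated library for 6 of the 7. The same counts over all genes tested were not made, so these are not read as traits of the members.

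Treated libraries lay below all buffer libraries for 4 members, ASCL2, CDX2, EPHB2 and SOX9. Over all genes tested, 20.1% had all treated libraries below all buffer libraries, so such a pattern was common in this table. The median log2 fold change of the 7 tested members was -0.25, against -0.06 over all genes tested. With each library centred on its median the 7 had a median of -0.17, against 0.02 over all genes tested, and after quantile normalization -0.17, against 0.0067.

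**Figure D2:**
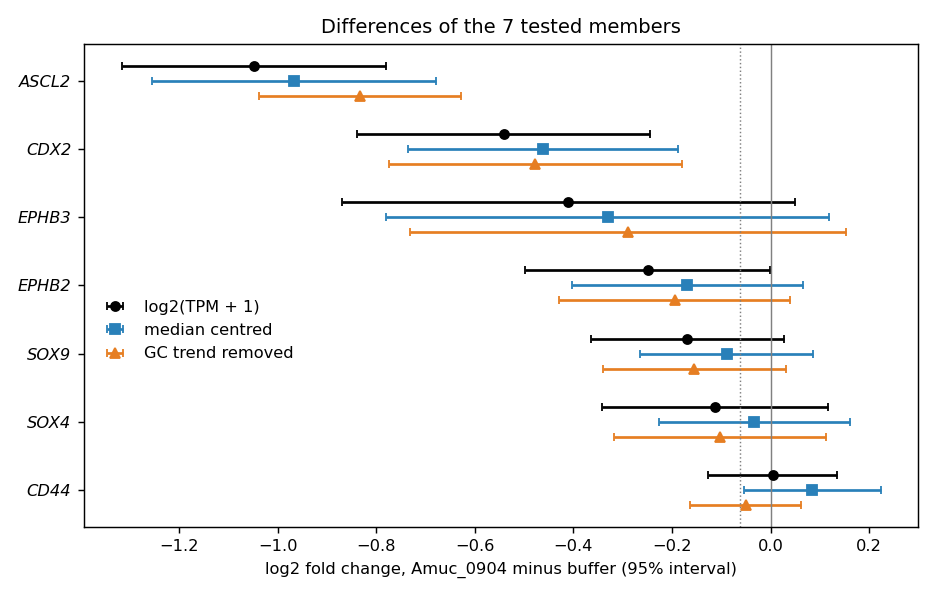
Log2 fold change (Amuc_0904 minus buffer, 95% interval of the limma fit, 3 libraries per group) of the 7 tested genes on log2(TPM + 1) and under 2 alternatives, with a dotted line at the median of all tested genes (-0.06). ASCL2 stands at -1.05, -0.97 and -0.83 in the 3 fits, CDX2 at -0.54, -0.46 and -0.48, and CD44 near 0.

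The trend of expression with transcript GC content differed between the groups, and the members differ in GC content. For each library, log2 values minus each gene's mean over the 6 libraries were regressed on transcript GC content. The slopes, which are thus relative to the 6 libraries together, lay between -0.112 and 0.00213 per 10 percentage points in Amuc_0904 libraries. In buffer libraries they lay between 0.00451 and 0.0931, so the groups did not overlap. They nearly touched, with 0.00213 in Amuc_0904 replicate 2 and 0.00451 in buffer replicate 1. Among tested genes the median log2 fold change was 0.04 in the quintile of lowest GC content and -0.20 in the quintile of highest GC content, 58.4% to 83.7%. ASCL2 (69.2% GC) and EPHB3 (62.2%) belong to the highest quintile, CDX2 (56.4%) and EPHB2 (55.6%) to the fourth, where the median was -0.13. SOX9 (51.0%) and SOX4 (50.7%) belong to the third, with a median of -0.06, and CD44 (45.3%) to the second, with a median of -0.00038. Once each library's GC trend was removed, the log2 fold change of ASCL2 was -0.83 (95% interval -1.04 to -0.63) and that of CDX2 was -0.48 (95% interval -0.77 to -0.18).

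Start regions from 250 bases before to 50 bases after the annotated start, from RefSeq on GRCh38.p14, were matched for 6 of the 10 genes: CD44, CDX2, EPHB2, EPHB3, PROM1 and SOX4. Those of CDX2 and EPHB2, whose treated libraries lay below all buffer libraries, are shown with that of CD44, whose groups overlapped. They are examples, and whether matches go with a separation of the groups was not tested. Capitals mark matches, on either strand, to the TCF core CTTTGA or CTTTGT, the E-box forms CAGCTG and CACCTG bound by helix-loop-helix factors, or the CDX core TTTATG. The CDX2 window is chr13:27969266-27969565 on the minus strand, the EPHB2 window chr1:22710588-22710887 on the plus strand, and the CD44 window chr11:35138921-35139220 on the plus strand.
CDX2: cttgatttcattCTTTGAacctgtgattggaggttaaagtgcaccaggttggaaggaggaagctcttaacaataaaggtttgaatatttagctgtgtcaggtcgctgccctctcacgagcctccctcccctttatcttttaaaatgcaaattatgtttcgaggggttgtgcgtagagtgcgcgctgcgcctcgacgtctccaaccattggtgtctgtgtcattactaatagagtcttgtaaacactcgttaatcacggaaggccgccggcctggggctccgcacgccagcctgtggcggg
EPHB2: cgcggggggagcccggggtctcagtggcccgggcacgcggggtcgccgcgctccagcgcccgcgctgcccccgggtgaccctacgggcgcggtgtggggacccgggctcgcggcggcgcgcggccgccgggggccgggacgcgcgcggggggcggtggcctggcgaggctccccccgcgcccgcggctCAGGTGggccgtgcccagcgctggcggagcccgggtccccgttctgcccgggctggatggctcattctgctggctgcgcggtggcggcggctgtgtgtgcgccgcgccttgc
CD44: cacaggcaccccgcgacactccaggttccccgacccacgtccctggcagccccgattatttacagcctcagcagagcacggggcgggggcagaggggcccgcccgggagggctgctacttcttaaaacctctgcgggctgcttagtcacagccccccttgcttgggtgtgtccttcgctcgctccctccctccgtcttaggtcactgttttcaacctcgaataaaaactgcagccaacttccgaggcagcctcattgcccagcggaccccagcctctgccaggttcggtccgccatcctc

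The CDX2 window held 1 match, the TCF core CTTTGA at positions 13 to 18 of the window on the gene's strand. The EPHB2 window held 1 match, to the E-box form CACCTG on the opposite strand at positions 189 to 194, and the CD44 window held 0. EPHB3 and SOX4, whose groups overlapped like those of CD44, held matches as well. EPHB3 had the E-box form CAGCTG at positions 107 to 112, and SOX4 had the same form at positions 30 to 35 and 188 to 193. PROM1, which was near 0 in both groups, had the most matches, with 1 of CTTTGA, 5 of CACCTG and 2 of TTTATG over its 4 windows. Of 34796 distinct start regions of all genes, 12.9% held CTTTGA and 16.1% held CTTTGT, 17.9% held CAGCTG, 20.6% held CACCTG and 10.6% held TTTATG. The matches are descriptions of the letters in these windows and say nothing of binding. The CDX2 window had a GC content of 50.3%, the EPHB2 window 83.0% and the CD44 window 63.3%.

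The genes whose profile over the 6 libraries was most like that of ASCL2 were UBE2S, KRT10, ZNF580, SPACA6 and NANOS1. Likeness was the root mean square difference between log2(TPM + 1) profiles, each centred on its own mean, among 9856 other genes with a symbol and a mean of at least 5 TPM. UBE2S, which encodes an E2 enzyme that extends ubiquitin chains with the anaphase-promoting complex, was the nearest, with a difference of 0.0414. It was at 216.97, 205.15 and 160.91 TPM in Amuc_0904 libraries, against 409.05, 431.93 and 388.51 TPM in buffer libraries. As for ASCL2, its lowest treated library was replicate 3 and its highest buffer library was replicate 2, a match that the choice by likeness favours. The likeness includes the gap between the groups, so it is no observation apart from the fall of ASCL2. KRT10, a keratin gene, followed with a difference of 0.0812, and the other 3 lay between 0.120 and 0.137. CDX2, at 0.294, ranked 96 among these genes, EPHB2 1057, SOX9 2390, SOX4 3598 and CD44 5948.

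**Figure D3:**
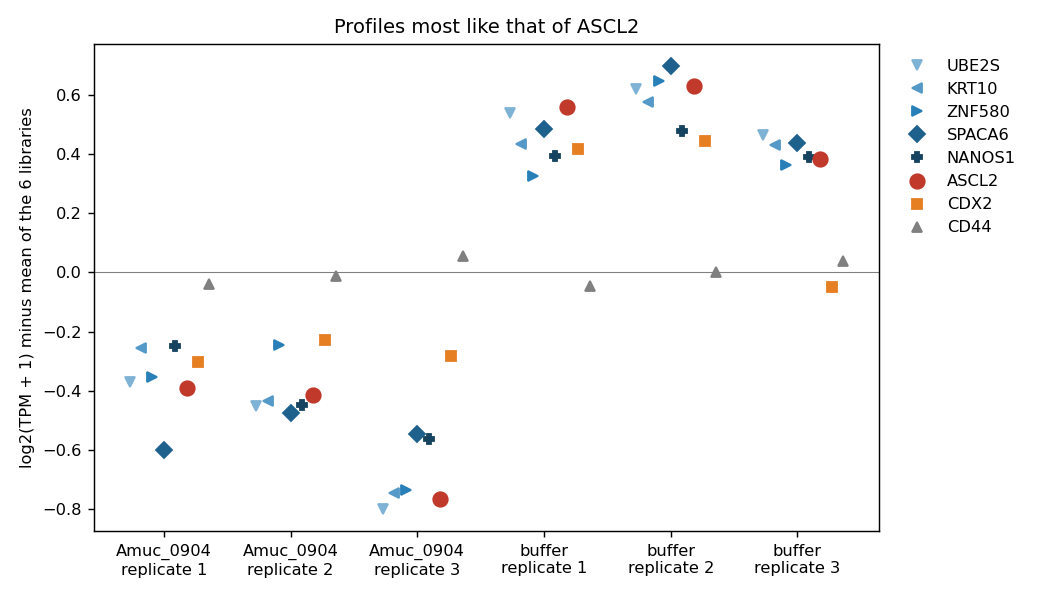
Log2(TPM + 1) minus its mean over the 6 libraries for ASCL2, the 5 genes most like it, CDX2 and CD44, with Amuc_0904 libraries on the left; points of 1 library are offset sideways for legibility. ASCL2 and the 5 genes lie below 0 in all treated and above 0 in all buffer libraries, CDX2 lies slightly below 0 in buffer replicate 3, and CD44 stays near 0.

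Other genes of intestinal stem cells showed no change past the threshold. Of 23 such genes 16 were tested, and in limma 0 rose and 0 fell at the adjusted threshold (over all genes tested 0.368% and 0.999%). At an unadjusted p under 0.05, 4 were lower and 0 higher, where 16.3% of all genes tested were lower and 4.49% higher. The median log2 fold change of this list was -0.19. AXIN2, a negative regulator of Wnt signalling that is itself a Wnt target, was at 254.27, 270.54 and 264.04 TPM in Amuc_0904 libraries and at 314.76, 343.61 and 297.85 TPM in buffer libraries (log2 fold change -0.27, limma adjusted p = 0.077). Its groups did not overlap. IFITM3, an interferon-induced membrane protein gene, averaged 827 ± 28.5 TPM in Amuc_0904 and 977 ± 94.7 TPM in buffer libraries (limma adjusted p = 0.138). The stem cell marker genes OLFM4 and SMOC2, named after their values were seen, were at 0.03 TPM or below in all 6 libraries.

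Among 18 genes of Wnt signalling and TCF targets, all tested, 1 fell, 0 rose and 17 did not pass in limma. That compares with 0.999% that fell and 0.368% that rose over all genes tested. The list includes CTNNB1, APC and TCF7L2, which belong to the pathway itself. At an unadjusted p under 0.05, 11 were lower and 2 higher, against 16.3% lower and 4.49% higher over all genes tested. The 2 higher were MYC (log2 fold change 0.21, limma adjusted p = 0.133) and DKK1 (0.38, limma adjusted p = 0.181). MYC was at 186.22, 186.6 and 164.6 TPM in Amuc_0904 libraries and at 157.11, 157.95 and 147.51 TPM in buffer libraries. The one that fell was SP5, a zinc finger transcription factor gene, at 93.69, 104.4 and 105.84 TPM in Amuc_0904 libraries, against 133.5, 147.42 and 145.52 TPM in buffer libraries. Its groups lay well apart, with a log2 fold change of -0.49 (SE 0.0708, limma adjusted p = 0.0227). The list's median log2 fold change was -0.27, and 9 of its members had all treated libraries below all buffer libraries, as had 20.1% of all genes tested. For 1 member, MYC, all treated libraries lay above all buffer libraries, as they did for 1010 of the 14421 genes tested. The call of SP5 ended without Amuc_0904 replicate 1 or 2 or buffer replicate 2 or 3 (highest limma adjusted p = 0.113), after removal of the GC trend (log2 fold change -0.32, adjusted p = 0.0986) and with median centring (adjusted p = 0.059) and without a filter on low values (adjusted p = 0.106). This list shares AXIN2, RNF43, ZNRF3 and TNFRSF19 with the stem cell list.

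ASCL2 acts as a dimer with E proteins, and TCF3, 1 of the E protein genes, passed the threshold in the fit of all 6 libraries. Of 11 tested genes for E proteins, ID inhibitors and Notch signalling, 1 fell, 0 rose and 10 did not pass in limma. That compares with 0.999% that fell and 0.368% that rose over all genes tested. The list had a median log2 fold change of -0.25, with 5 lower and 1 higher at an unadjusted p under 0.05 (over all genes tested 16.3% and 4.49%). TCF3, which encodes the E proteins E12 and E47, was at 48.73, 56.02 and 48.77 TPM in Amuc_0904 libraries, against 66.49, 70.62 and 69.78 TPM in buffer libraries. All treated libraries lay below all buffer libraries, with a log2 fold change of -0.43 (SE 0.0741, limma adjusted p = 0.0379). The call held after removal of the GC trend (log2 fold change -0.31, adjusted p = 0.0459) and without Amuc_0904 replicate 2, and ended without any other single library (highest adjusted p = 0.151), with median centring (adjusted p = 0.102), after quantile normalization (0.0696), without ribosomal protein and mitochondrial genes (0.0519) and without a filter on low values (0.133). ATOH1, the helix-loop-helix factor of secretory cells, named after its value was seen, was listed at 0 in all 6 libraries.

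In the SOX family outside SOX9 and SOX4, 3 of 15 genes were tested, of which 1 fell, 0 rose and 2 did not pass in limma. That compares with 0.999% that fell and 0.368% that rose over all genes tested. At an unadjusted p under 0.05, 2 were lower and 0 higher (over all genes tested 16.3% and 4.49%). SOX12, which belongs to the same subgroup as SOX4, was at 7.75, 8.33 and 7.56 TPM in Amuc_0904 libraries, against 12.07, 12.88 and 10.72 TPM in buffer libraries. These groups did not overlap, with a log2 fold change of -0.54 (SE 0.0999, limma adjusted p = 0.0472). The call ended without any single library (highest adjusted p = 0.169) and after removal of the GC trend (log2 fold change -0.42, adjusted p = 0.0843). It also ended with each of the other scalings and without a filter on low values (adjusted p from 0.0646 to 0.139).

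Of 16 ephrin and further EPH receptor genes 12 were tested, and in limma 0 rose and 0 fell (over all genes tested 0.368% and 0.999%). With a filter at 5 TPM, 1 of 7 fell. In the fit of the 12 genes, 4 were lower and 0 higher at an unadjusted p under 0.05 (over all genes tested 16.3% and 4.49%). Their median log2 fold change was -0.20. EFNB1, an ephrin-B ligand of EPHB2 and EPHB3, was at 133.05, 140.29 and 129.16 TPM in Amuc_0904 libraries and at 157.67, 167.83 and 158.12 TPM in buffer libraries (log2 fold change -0.26, limma adjusted p = 0.068). Its groups did not overlap. EPHA2, a receptor for ephrin-A ligands, averaged 36.4 ± 2.53 TPM in Amuc_0904 and 42.6 ± 3.88 TPM in buffer libraries (log2 fold change -0.22, limma adjusted p = 0.204).

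Genes of differentiated intestinal cells were near or at 0 in both groups. Of 26 genes of absorptive, goblet, enteroendocrine and Paneth cells, 9 were listed at 0 in all 6 libraries and 1 passed the filter, and the highest value among the other 25 was 1.30 TPM. The tested one was DEFA5, a Paneth cell defensin gene, at 4.82, 4.83 and 1.93 TPM in Amuc_0904 libraries and at 4.85, 2.7 and 2.15 TPM in buffer libraries. Its groups overlapped (log2 fold change 0.18, 95% interval -0.54 to 0.90), and in limma 0 of this list rose or fell, also at an unadjusted p under 0.05. Among the colorectal epithelium markers 1 of 6 tested genes fell, 0 rose and 5 did not pass in limma. That compares with 0.999% that fell and 0.368% that rose over all genes tested. The markers had a median log2 fold change of -0.20, with 4 lower and 0 higher at an unadjusted p under 0.05 (over all genes tested 16.3% and 4.49%). This list includes CDX2, 1 of the 4, which is described above. CDH1, which encodes E-cadherin, was at 3.78, 3.57 and 4.06 TPM in Amuc_0904 libraries, against 6.71, 8.33 and 5.99 TPM in buffer libraries (log2 fold change -0.73, limma adjusted p = 0.0444). The groups were separate, and the call ended without any single library (highest adjusted p = 0.142), with median centring, quantile normalization or ribosomal protein and mitochondrial genes left out (adjusted p from 0.0567 to 0.0624), and without a filter on low values (0.159).

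**Figure D4:**
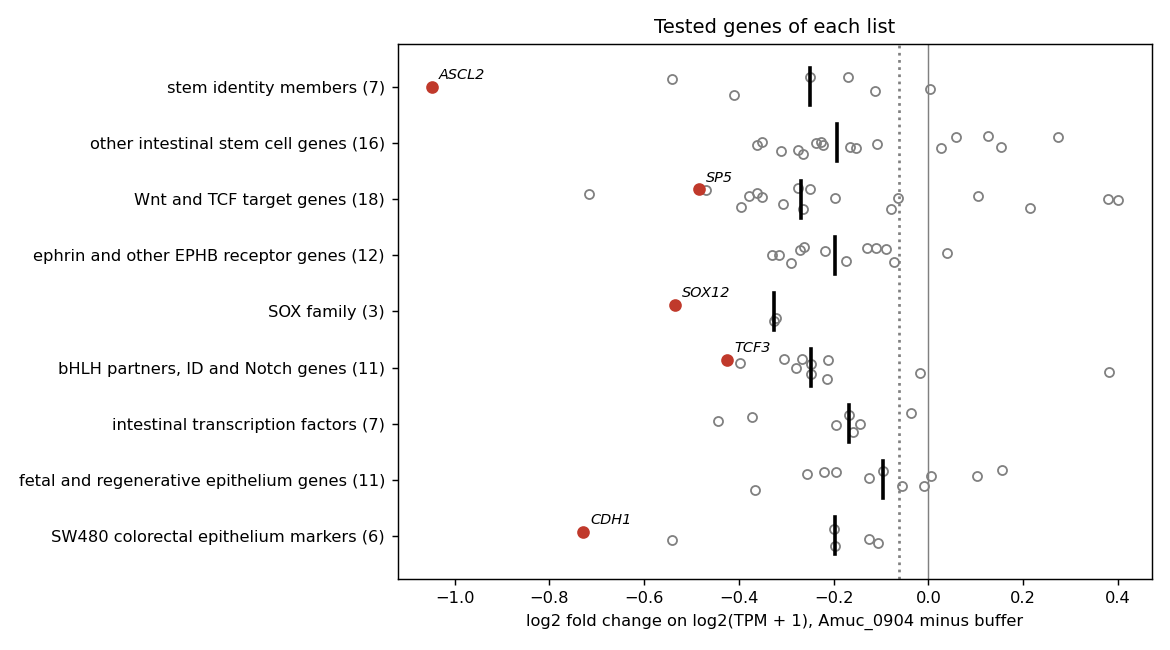
Log2 fold change on log2(TPM + 1), Amuc_0904 minus buffer, of the tested genes of each list with at least 3 tested genes (number in parentheses); each point is a gene, filled where it passed the limma adjusted threshold, the black bar is the list's median and the dotted line the median of all tested genes (-0.06). ASCL2, SP5, SOX12, TCF3 and CDH1 are the filled points, all below 0, and vertical scatter within a list has no meaning.

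Over all genes, 197 of 14421 passed, of which 53 rose and 144 fell (73.1% fell). This split moved with scaling: with median centring 43 rose and 42 fell (49.4% fell), after quantile normalization 46 rose and 56 fell (54.9%), and after GC removal 72 rose and 102 fell (58.6%). A TPM of 1 or more was reached by 14244, 14271 and 14420 genes in Amuc_0904 libraries and by 14534, 14586 and 14481 genes in buffer libraries, without overlap, and the part of this difference in the results above was not tested.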

How the data were processed

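RNA from SW480 cells was sequenced in 3 libraries given Amuc_0904 and 3 given buffer, extracted with TRIzol per the labels' protocols. The authors deposited 1 gene table in TPM, quantified with RSEM per the series' design text. Tools named beside it in the submitters' processing notes are StringTie, HISAT2 and edgeR, and the build named is a mouse one (GRCm38.p6), while the identifiers are human Ensembl genes, so the annotation used is not certain. Values have 2 decimals and keep no read depth, so no counting interval is given. Among 60664 genes, 20055 lacked a symbol and 29672 were at 0 throughout.

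The members and gene lists were chosen with earlier results of these data known. The 14421 genes that reached 1 TPM in 3 or more libraries were tested on log2(TPM + 1), which understates changes of low genes, by a two-sided moderated test in limma 3.58.1 with a trended prior (R 4.3.3), with Benjamini-Hochberg adjustment over all tested genes and a threshold of 0.05. Log2 fold changes are Amuc_0904 minus buffer. Named from each list were its called genes, at most 4 by size of change, or the 2 of highest mean if none was called, and further the 5 genes most like ASCL2. Other named genes were chosen after their values were seen. Alternatives were a pseudocount of 0.1, no filter or a filter at 5 TPM, a replicate block, median centring, quantile normalization, ribosomal protein and mitochondrial genes left out, loess removal of the GC trend (span 0.3), and each library left out with the filter reapplied. GC content came from the longest GENCODE 29 transcript, found for 14277 tested genes (99.0%). On simulated data with 14421 genes, changes of 1.5-fold were recovered in 59% and changes of 2-fold in 87% of cases, and 1.35% of calls were unchanged genes. The simulation drew independent normal noise for each gene and placed changes only in genes of at least 5 TPM. It held no GC trend and no shift shared between genes, so these shares do not carry over to the calls made on the real libraries. Figures used matplotlib 3.10.9 in Python 3.11.15.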

Additional observations from a re-analysis of the deposited data

How the results depend on the processing

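The log2 fold change of ASCL2 was negative in all 14 alternatives and kept its call in 12. The exceptions were no filter on low values (-1.05, limma adjusted p = 0.0912, with 30992 genes tested in place of 14421) and the fit without buffer replicate 2. Without a filter its unadjusted limma p also differed, at 0.000132 against 1.48e-05 with the filter at 1 TPM. Without 1 library each the log2 fold change of ASCL2 lay between -1.12 and -0.93. The number of genes called, 197, was 9 without a filter, 432 with a filter at 5 TPM, 85 with median centring and 102 after quantile normalization. It lay between 33 and 110 without 1 library each, lowest without buffer replicate 2. With the replicate number as a block 80 genes were called. Deviations of same-numbered libraries correlated by -0.029, 0.075 and -0.094, so the numbers were not taken as pairs, and ASCL2 kept its call with the block. Of 83 values for the other tested members, 78 kept direction and side of the threshold. CDX2 passed at a filter of 5 TPM (limma adjusted p = 0.0484) and without buffer replicate 3. CD44 changed sign, with -0.051 after GC removal and -0.023 to 0.025 without 1 library each (below 0 without Amuc_0904 replicate 3 or buffer replicate 1), each far from the threshold. The cause of these shifts was not tested. Among listed genes that fell, SP5, SOX12, TCF3 and CDH1 all lost the call with median centring and without a filter. With the block (limma adjusted p from 0.0742 to 0.0928), after quantile normalization (0.0567 to 0.0696) and without ribosomal protein and mitochondrial genes (0.0519 to 0.0646), SOX12, TCF3 and CDH1 lost it and SP5 kept it. With a filter at 5 TPM, 1 of 7 ephrin and EPH receptor genes and 1 of 10 genes of fetal and regenerating epithelium fell. Of 16 genes of Wnt signalling and TCF targets, 3 fell at that filter, and 0 genes of these lists rose. Over all 10292 genes tested there, 354 fell and 78 rose. Depth is unknown, so LGR5, PROM1 and CDX1 cannot be called absent.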

Other observations

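Transcription factors of intestinal epithelium other than CDX1 and CDX2 were mostly low in this line. Of 17 such genes 7 were tested, and all 7 had a negative log2 fold change (median -0.17), as had 62.5% of all genes tested. In limma 0 of the 7 rose and 0 fell, against 0.368% and 0.999% over all genes tested. At an unadjusted p under 0.05, 1 was lower and 0 were higher, against 16.3% lower and 4.49% higher over all genes tested. VDR, the vitamin D receptor gene, averaged 25.7 ± 2.56 TPM in Amuc_0904 and 29.7 ± 4.80 TPM in buffer libraries (SD, n = 3 each; limma adjusted p = 0.403). KLF5, a factor of proliferating crypt cells, was at 18.9, 19.15 and 20.26 TPM in Amuc_0904 libraries and at 22.3, 20.88 and 21.62 TPM in buffer libraries (limma adjusted p = 0.305), without overlap.

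Of 15 genes of fetal and regenerating epithelium 11 were tested, with a median log2 fold change of -0.10. In limma 0 of the 11 rose and 0 fell, against 0.368% and 0.999% over all genes tested. At an unadjusted p under 0.05, 2 were lower and 1 higher, against 16.3% lower and 4.49% higher over all genes tested. S100A6, a calcium-binding protein gene, averaged 1878 ± 130 TPM in Amuc_0904 and 1749 ± 103 TPM in buffer libraries (limma adjusted p = 0.461). CLU, which encodes clusterin, was at 233.58, 237.11 and 254.83 TPM in Amuc_0904 libraries and at 334.24, 320.42 and 283.22 TPM in buffer libraries (log2 fold change -0.37, limma adjusted p = 0.0548), without overlap.

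Of the tested markers of other cell types, the macrophage marker CD68 was at 3.11, 2.33 and 3.08 TPM in Amuc_0904 libraries and at 1.68, 1.1 and 1.48 TPM in buffer libraries (log2 fold change 0.67, limma adjusted p = 0.077). All its treated libraries lay above all buffer libraries, as they did for 1010 of the 14421 genes tested. At an unadjusted p under 0.05 in limma, 1 of the 2 tested immune markers was higher and 0 were lower, against 4.49% higher and 16.3% lower over all genes tested. The monocyte marker CD14 averaged 1.58 ± 0.604 TPM in Amuc_0904 and 1.41 ± 0.261 TPM in buffer libraries (limma adjusted p = 0.865). The collagen gene COL1A1 averaged 1.57 ± 0.290 TPM in Amuc_0904 and 2.49 ± 0.756 TPM in buffer libraries (limma adjusted p = 0.258).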
